A study of Mus musculus with 6 samples.

Results

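A set of 10 members of the Ms4a family were followed in osteoclasts cultured from the bone marrow of mice with and without deletion of Ano1, the gene of a calcium-activated chloride channel. The 10 genes (Ms4a1, Ms4a2, Ms4a3, Ms4a4a, Ms4a4c, Ms4a6b, Ms4a6c, Ms4a6d, Ms4a7 and Ms4a8a) were taken by the gene name that the array gives, out of 37074 gene names in all, and 14 of the 56605 probes for transcripts carried these names. Every one of the 14 probes is described here. The control group was 3 Ano1fl/fl mice, in which both copies of Ano1 carry loxP sites but no Cre is present. The other group was 3 Ctsk-Cre;Ano1fl/fl littermates, which carry the same floxed alleles and in addition a Cre recombinase driven by the cathepsin K gene, so that deletion is limited to cells that have switched on Ctsk, as osteoclasts do. Cells of both groups had been treated for 5 days with RANKL, the cytokine that turns monocyte and macrophage precursors into osteoclasts. For osteoclast cultures in general, the methods name marrow from mice aged 6 to 8 weeks, and give no separate age for the arrays. Total RNA was labelled with Cy3 and measured on 1 Agilent array per mouse. Precision is set throughout by the size of the groups, 3 arrays each.

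Ms4a genes encode small membrane proteins that cross the membrane 4 times, and in the mouse most of them lie side by side on chromosome 19. Several are used as lineage marks in blood. Ms4a1 encodes CD20 of B cells, Ms4a2 the beta chain of the high-affinity IgE receptor of mast cells and basophils, and Ms4a3 marks the granulocyte-monocyte progenitor. Ms4a4c, Ms4a6b and Ms4a6c are grouped here with monocytes, and Ms4a4a, Ms4a6d, Ms4a7 and Ms4a8a with macrophages. These groups are by the main known site of expression and several members are found in more than one of these cell types. A culture of bone marrow can keep cells of all of these lineages beside the osteoclasts, and in RNA from a whole culture fewer cells of a type and less RNA per cell cannot be told apart.

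The probes are 60 bases long, and those on which the results turn are shown first, with the mm9 position that the array design gives. The position in the transcript at which each probe starts is that of the design too, and whether it falls in coding or untranslated sequence was not determined here. The main Ms4a1 probe, A_55_P2802151, starts at base 1681 of its transcript, at chr19:11325409-11325468 on the minus strand. The main Ms4a2 probe, A_65_P16227, starts at base 2602, at chr19:11690107-11690166 on the minus strand. The Ms4a3 probe, A_51_P364210, starts at base 883, at chr19:11704055-11704114 on the minus strand. The Ms4a6b probe, A_55_P2622800, starts at base 578, at chr19:11601297-11601356 on the plus strand, and the Ms4a6d probe, A_66_P116441, starts at base 806, at chr19:11661601-11661660 on the minus strand. The Ms4a4c probe, A_55_P2135980, starts at base 825, at chr19:11500839-11500898 on the plus strand. It is shown because it differs in kind from the others. Capitals mark a run of 29 bases in which T and G alternate, and the rest is in lower case.
Ms4a1: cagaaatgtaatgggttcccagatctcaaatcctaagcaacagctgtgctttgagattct
Ms4a2: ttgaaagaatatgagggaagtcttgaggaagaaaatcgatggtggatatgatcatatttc
Ms4a3: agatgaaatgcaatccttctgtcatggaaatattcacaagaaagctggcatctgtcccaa
Ms4a6b: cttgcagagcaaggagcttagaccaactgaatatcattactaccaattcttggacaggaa
Ms4a6d: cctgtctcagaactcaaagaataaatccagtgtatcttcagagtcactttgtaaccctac
Ms4a4c: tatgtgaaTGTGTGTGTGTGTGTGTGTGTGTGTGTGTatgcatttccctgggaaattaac
The Ms4a4c probe shared a stretch of at least 20 bases with 52 probes of other genes. The other 13 member probes shared no stretch of 20 bases with a probe of another gene, the other Ms4a genes on the array included. Whether a probe also matches the transcript of a near-identical family member could not be tested without transcript sequences.

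The scanner software marked 33480 to 34951 of the 59305 transcript spots of each array as well above background and none as saturated. Over the probes tested, arrays of the same group correlated at 0.994 to 0.997 and arrays of different groups at 0.944 to 0.95. The single Ano1 probe was below background on all 6 arrays, so it does not check the genotype labels, and every direction below follows the labels. Of 14 osteoclast markers, 13 were well above background on all 6 arrays, among them Ctsk and Acp5, the genes of cathepsin K and tartrate-resistant acid phosphatase. The calcitonin receptor gene Calcr, named here after its values were seen, was well above background on all 3 Ctsk-Cre;Ano1fl/fl arrays but on only 2 of the 3 Ano1fl/fl arrays, where its signals of 3.85 to 4.36 lay near the floor, against 12.71 to 13.33. On the arrays of Ctsk-Cre;Ano1fl/fl osteoclasts 13 of the 14 passed the test as higher and 1 as lower, with Ctsk higher by 3.17, the chloride transporter gene Clcn7 by 1.17 and Acp5 by 0.84 on the log2 scale. The lower call, Tnfrsf11a, named here after its values were seen, had an adjusted p of 0.034 (limma) and was lost in 8 of the 16 alternative settings. The 13 higher calls include Nfatc1, Acp5, Ctsk and Mmp9, which the study's own qRT-PCR gives as lower in cultures of these genotypes. The study also reports less NFATc1 protein, fewer multinucleated osteoclasts and smaller resorption pits in such cultures. No probe here settles which direction is right, so the sign of every difference below rests on the labels alone. All 15 stromal markers were measured too, and 13 were higher and 2 lower, with a median log2 difference of 3.85, which fell to 2.48 with normexp background correction. The number called lower was 0 to 2 over the 16 alternatives and differed from 2 in 13 of them. The stromal genes of highest signal, Acta2, Sparc and Col1a2, were higher by 0.54, 4.82 and 5.39. The summed signal of the stromal list (the sum of normalized signals on the linear scale) was 22813 to 25163 on the Ano1fl/fl arrays and 89504 to 132627 on the Ctsk-Cre;Ano1fl/fl arrays. The methods carry on only the suspension cells after the first day of culture, which leaves adherent cells behind. The part of stromal cells in the results below was not tested.

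Of the 10 members, counted by the probe with the highest mean, 3 were higher in Ctsk-Cre;Ano1fl/fl osteoclasts (Ms4a1, Ms4a6d and Ms4a7), 4 were lower (Ms4a2, Ms4a3, Ms4a6b and Ms4a8a) and 3 did not pass the test (Ms4a4a, Ms4a4c and Ms4a6c). The test was limma's moderated comparison over all 31848 probes above background in at least 1 group, and a probe was called at an adjusted p under 0.05. Over all 20645 genes, 51.5% were called, 23.0% as higher and 28.5% as lower, so a call alone set no member apart from the array as a whole. By more than 2-fold, 1 member was higher (Ms4a1) and 3 were lower (Ms4a2, Ms4a3 and Ms4a6b), where 9.89% and 7.19% of all genes were higher and lower to that extent. Of these, Ms4a2 entered the test only through the Ano1fl/fl group, where its signal was higher, so its call and size are uncertain. The groups did not overlap for 10 of the 12 member probes tested, beside 64.0% of all probes tested. Differences below are on the log2 scale of normalized signal, as Ctsk-Cre;Ano1fl/fl minus Ano1fl/fl, and the median difference over all genes was -0.059.

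**Figure D1:**
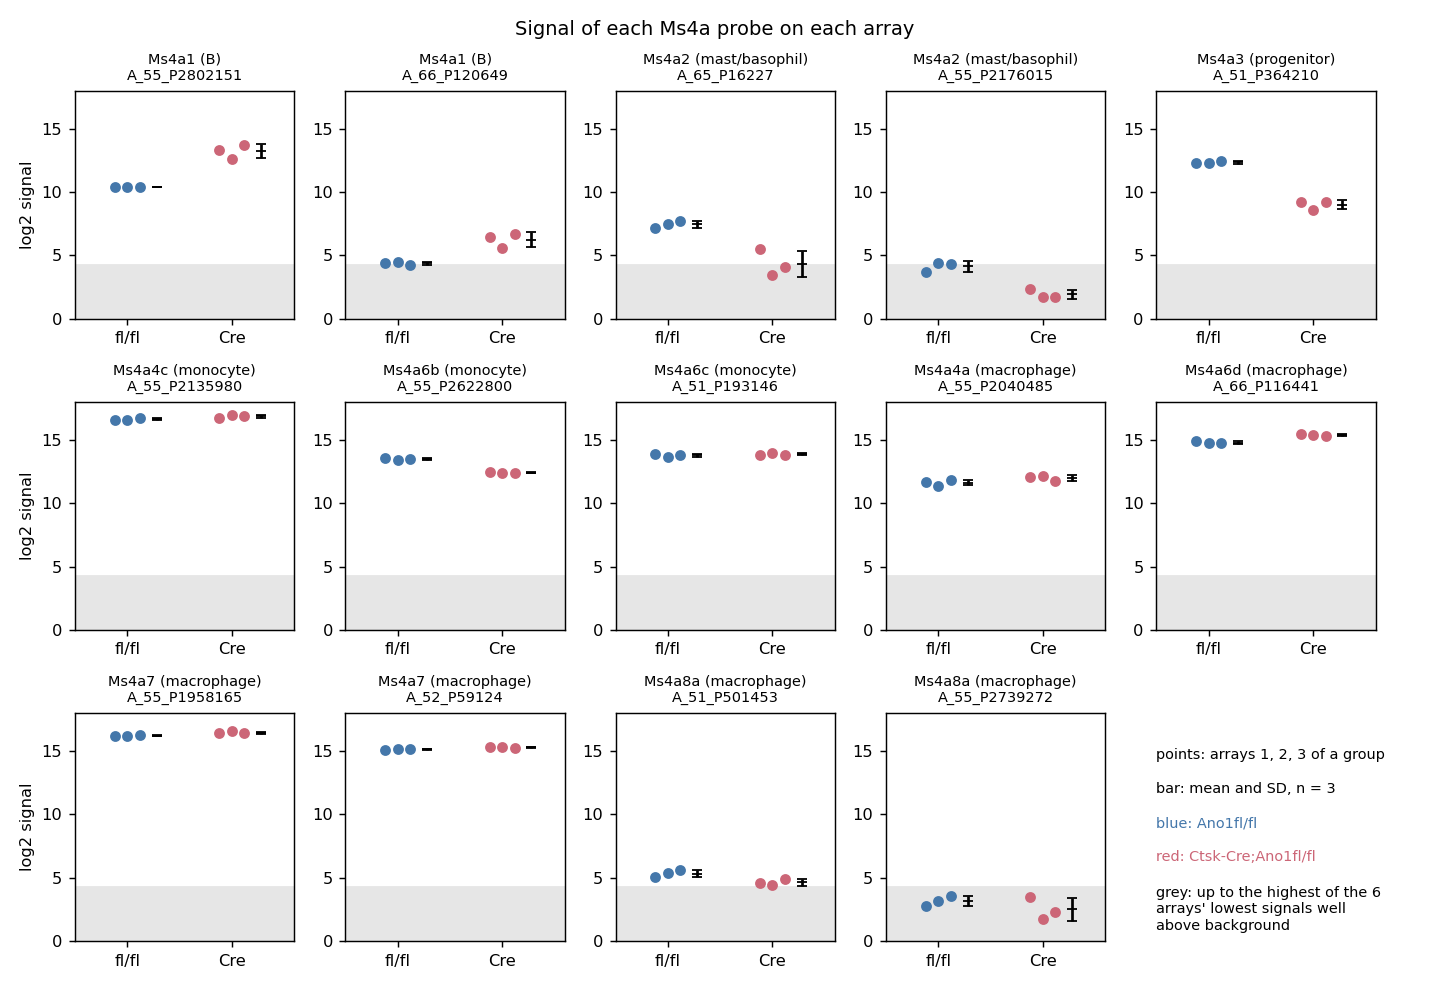
Log2 normalized signal of each of the 14 Ms4a probes on the 6 arrays, in 1 panel per probe, with points for the arrays of Ano1fl/fl (blue) and Ctsk-Cre;Ano1fl/fl (red) osteoclasts and bars for the mean and SD of 3 arrays. The groups are well apart for Ms4a1, Ms4a2 and Ms4a3 and close for the monocyte and macrophage members other than Ms4a6b.

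The B cell member, Ms4a1, was the only one higher by more than 2-fold. CD20, its product, sits in the B cell membrane from the pre-B stage onwards. On the main probe the log2 signal was 10.39 on each of the 3 Ano1fl/fl arrays, and 13.35, 12.66 and 13.70 on Ctsk-Cre;Ano1fl/fl arrays 1, 2 and 3. All 3 Ctsk-Cre;Ano1fl/fl arrays were higher than every Ano1fl/fl array, and array 2 was the lowest of them. The difference was 2.85 with an SE of 0.25, or 7.20-fold (limma, adjusted p = 0.00029). A second Ms4a1 probe, A_66_P120649, lies further along the gene and gave low signals. It read 4.37, 4.51 and 4.26 on the Ano1fl/fl arrays, against 6.47, 5.60 and 6.69 on the Ctsk-Cre;Ano1fl/fl arrays. It was higher in the same arrays and again lowest on array 2 of the Ctsk-Cre;Ano1fl/fl group, with a difference of 1.87 and an SE of 0.28 (limma, adjusted p = 0.0021). With normexp background correction, which compresses low signals, this second difference was 0.72.

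Most other B cell genes of the list moved with Ms4a1. Of 18 B cell markers 17 were tested, 14 were higher, 1 was lower and 2 were not called, with a median difference of 2.17. The summed signal of the list was 62634 to 65765 on Ano1fl/fl arrays and 111370 to 151477 on Ctsk-Cre;Ano1fl/fl arrays. Most of the sum on the Ano1fl/fl arrays came from Blnk and Cd72. Igll1, a surrogate light chain gene of early B cell precursors, was below background on all arrays. Vpreb1, another such gene, and Fcer2a are named here after their values were seen. Vpreb1 was the marker called lower, with a difference of -0.90 (limma, adjusted p = 0.0034), and Fcer2a was not called at -0.06 (adjusted p = 0.91). Among the 3 markers with the highest signal, Blnk, an adaptor of the B cell receptor that macrophages also use, was higher by 0.91 (adjusted p = 0.00021). Cd79b, a signaling chain of the B cell receptor, was higher by 1.83 (adjusted p = 0.0013), and it too was lowest on array 2 of the Ctsk-Cre;Ano1fl/fl group (14.48, 13.89 and 14.82 on arrays 1, 2 and 3). Cd72, a B cell membrane protein, was not called, with a difference of -0.33 and an adjusted p of 0.097.

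The mast cell and basophil member, Ms4a2, was lower. Its product amplifies the signal of the IgE receptor and helps carry the receptor to the surface. The main probe read 7.18, 7.51 and 7.72 on the Ano1fl/fl arrays, against 5.47, 3.46 and 4.06 on the Ctsk-Cre;Ano1fl/fl arrays. It was well above background on all 3 Ano1fl/fl arrays but on only 1 of the 3 Ctsk-Cre;Ano1fl/fl arrays, and the groups did not overlap. The nominal difference was -3.13. The probe entered the test only through the Ano1fl/fl arrays, and the difference is taken against signals mostly not well above background. Its size is therefore not a measured one, and no p-value is given. The size varied between alternatives, from -1.49 with normexp correction and -1.99 with the uncorrected spot medians to -3.70 without Ctsk-Cre;Ano1fl/fl array 1. The other Ms4a2 probe, A_55_P2176015, was above background on 2 Ano1fl/fl arrays and on no Ctsk-Cre;Ano1fl/fl array and was not tested.

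The other chains of the IgE receptor did not all follow Ms4a2. Fcer1a, the IgE-binding alpha chain, read 7.0, 7.0 and 7.45 on the Ano1fl/fl arrays, against 6.13, 4.63 and 5.11 on the Ctsk-Cre;Ano1fl/fl arrays, so that array 1 of the Ctsk-Cre;Ano1fl/fl group was the highest of that group for both chains. Its difference was -1.86 (adjusted p = 0.0070). Fcer1g, the gamma chain, which macrophages and osteoclasts use with other receptors as well, was higher by 0.26 (adjusted p = 0.023). Among all 15 genes of the IgE receptor complex and its signaling, 9 were higher, 4 were lower and 2 were not called, with a median of 0.31, or 0.15 when all probes of a gene were averaged. The kinase gene Lyn and the exchange factor gene Vav1, which with Fcer1g had the highest signals of this list, were higher by 0.65 and 0.78.

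Of 17 mast cell and basophil markers 13 were tested, of which 8 were lower, 1 was higher and 4 were not called, with a median of -0.82. The summed signal of this list was 11139 to 13500 on Ano1fl/fl arrays and 4539 to 7230 on Ctsk-Cre;Ano1fl/fl arrays. The mast cell protease genes Cma1, Mcpt4 and Tpsab1 and the receptor gene Mrgprb2 were below background on all 6 arrays. Other mast cell genes of the list, named here after their values were seen, were measured. The protease gene Cpa3 was lower, with a difference of -3.01 (adjusted p = 0.0063), and the protease gene Tpsb2 and the receptor gene Kit were not called, at -0.32 (adjusted p = 0.54) and -0.39 (adjusted p = 0.071). The basophil protease genes Prss34 and Mcpt8 gave higher readings on the Ano1fl/fl arrays than on the Ctsk-Cre;Ano1fl/fl arrays. Prss34 read between 11.90 and 12.27 on the Ano1fl/fl arrays, against 10.85, 7.95 and 8.53 on the Ctsk-Cre;Ano1fl/fl arrays. Mcpt8 read 10.87, 11.11 and 11.37 and then 10.07, 7.68 and 8.02. Both were therefore highest, within the Ctsk-Cre;Ano1fl/fl group, on array 1, the array on which Ms4a2 was also highest. The differences were -2.95 for Prss34 and -2.53 for Mcpt8, each with an adjusted p of 0.014. Hpgds, a prostaglandin D synthase gene, was higher by 0.70 (adjusted p = 0.0012).

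Ms4a3, the progenitor member, was lower by an amount that cannot be ranked against that of Ms4a2, whose signal was near background. Its product is known to bind the phosphatase Cdkn3 and to restrain the cell cycle in hematopoietic cells. The log2 signal was 12.28, 12.33 and 12.48 on the Ano1fl/fl arrays, against 9.19, 8.58 and 9.23 on the Ctsk-Cre;Ano1fl/fl arrays. Every Ctsk-Cre;Ano1fl/fl array was lower than every Ano1fl/fl array by about 3 units or more, and array 2 was the lowest. The difference was -3.37 with an SE of 0.18, or 10.3-fold lower (limma, adjusted p = 5.0e-05).

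Most other genes of the granulocyte-monocyte progenitor were lower as well. All 13 were tested, of which 11 were lower, 0 were higher and 2, Flt3 and Gfi1, were not called, with a median of -1.43. The summed signal of the list was 160806 to 188775 on Ano1fl/fl arrays and 25414 to 47519 on Ctsk-Cre;Ano1fl/fl arrays. Mpo, the myeloperoxidase gene, read 16.04, 16.01 and 16.05 and then 12.90, 11.98 and 13.01, a difference of -3.41 (adjusted p = 0.00018). Ctsg, which encodes the granule protease cathepsin G, had a difference of -3.40 (adjusted p = 0.00016). Like Ms4a3, both were lowest on array 2 of the Ctsk-Cre;Ano1fl/fl group. Plac8 was lower by a smaller amount, with a difference of -1.10 (adjusted p = 0.019). By Pearson correlation over the 6 arrays, probes most like Ms4a3 included those of Myl10 (r = 0.9991) and Nme7 (r = 0.9991). With 6 arrays in 2 groups such values are common, since 503 other probes had an r above 0.99.

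Known binding partners of Ms4a proteins did not share a direction. Of the 6 listed, 3 were higher and 3 were lower. Cdkn3, the partner of Ms4a3, had a difference of -2.08 (adjusted p = 0.00018) and Cdk2, the kinase that Cdkn3 acts on, had a difference of -0.49 (adjusted p = 0.0031). Clec7a, which encodes Dectin-1, a partner of Ms4a4a on macrophages, was higher by 1.6 (adjusted p = 0.00026). Tnfrsf18, which encodes the receptor GITR, a partner described for Ms4a4b, was higher by 0.64 (adjusted p = 0.020).

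**Figure D2:**
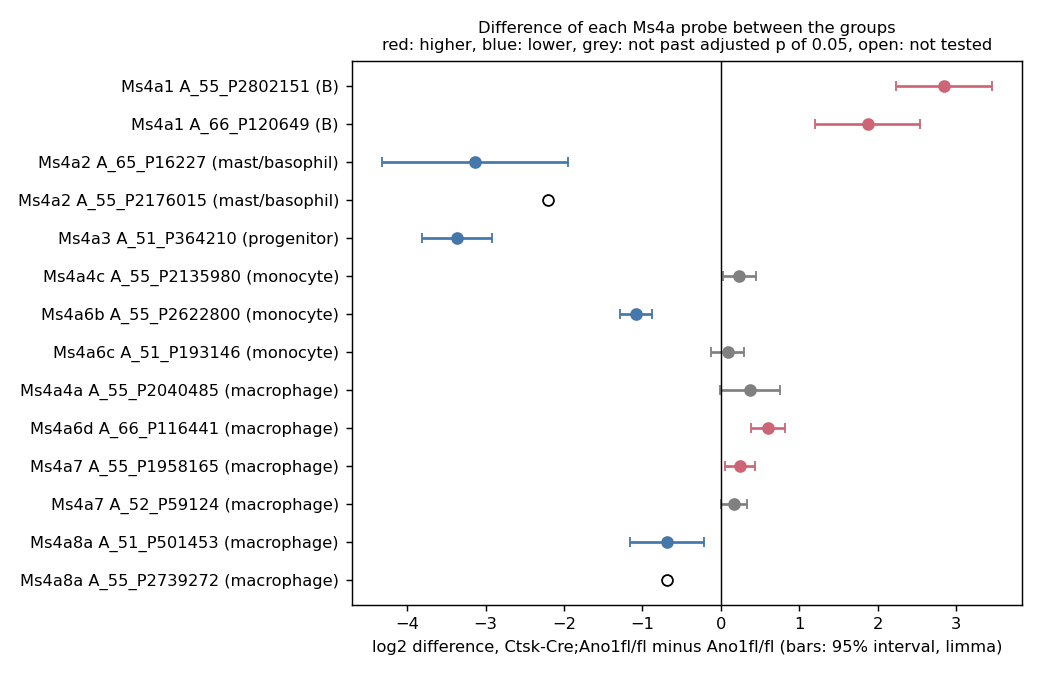
Log2 difference of each Ms4a probe (points) with the 95% interval of limma (bars), grouped by lineage from B cell at the top to macrophage at the bottom, with open points for the 2 probes not tested. The B cell probes lie to the right of 0, the mast cell and progenitor probes to the left, and the monocyte and macrophage probes within about 1 unit of 0.

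The 3 monocyte members did not move together. Ms4a6b was lower, reading 13.58, 13.40 and 13.53 on the Ano1fl/fl arrays, against 12.48, 12.36 and 12.42 on the Ctsk-Cre;Ano1fl/fl arrays. The spread within each group was narrow and the groups were far apart, with a difference of -1.08 and an SE of 0.08 (limma, adjusted p = 0.00017). Ms4a6c, its near neighbour in the gene cluster, read 13.88, 13.68 and 13.78 and then 13.84, 13.95 and 13.81. Its groups overlapped and it was not called. The difference was 0.09 with a 95% interval of -0.12 to 0.30 (adjusted p = 0.44), and with 75th percentile scaling in place of quantile normalization it was -0.0028.

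Ms4a4c read 16.61, 16.57 and 16.71 on the Ano1fl/fl arrays, against 16.76, 16.97 and 16.86 on the Ctsk-Cre;Ano1fl/fl arrays. The groups did not overlap, but the difference of 0.23 with an SE of 0.09 was not called (adjusted p = 0.061). It passed with an intensity trend and robust settings (adjusted p = 0.011), with normexp correction (0.030) and with the uncorrected spot medians (0.043). Because of the repeat shown above, this probe was set beside others with the same kind of run, a comparison chosen after the sequence and its values had been seen. Of 56591 probes, 46 held a run of at least 20 bases of alternating T and G, and all of them were well above background in at least 1 group. Without Ms4a4c, 36 of the other 45 were higher, 0 were lower and 9 were not called, beside 21.8% of all probes called higher. The 45 differences ranged from 0.19 to 0.61 with a median of 0.39, although the probes belong to 45 different gene names. Among 31 tested probes with an equally long run of alternating C and A, 0 were called and the median was -0.09. The part of the repeat in the Ms4a4c signal was not tested, and this value is given for the probe, not for the gene.

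**Figure D3:**
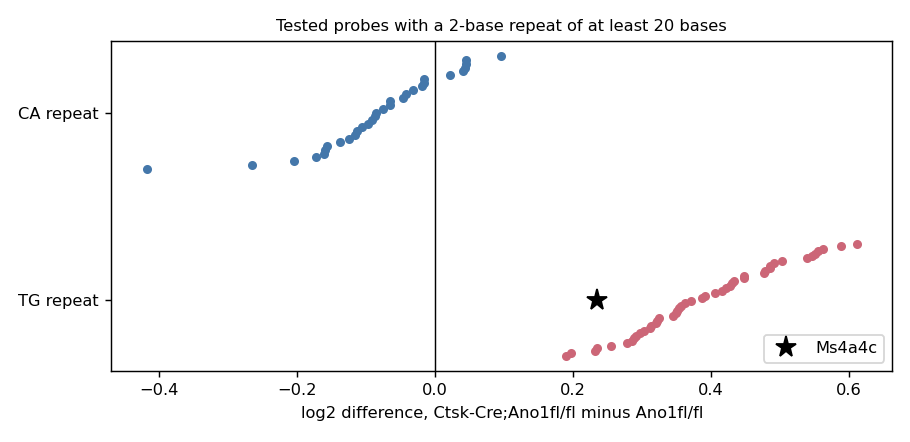
Log2 difference (Ctsk-Cre;Ano1fl/fl minus Ano1fl/fl) of each tested probe with a run of at least 20 bases of alternating T and G (red, 45 probes of other genes, and a star for Ms4a4c) or of alternating C and A (blue, 31 probes), spread vertically by rank. The Ms4a4c difference of 0.23 falls at the low end of the TG probes, which all lie above 0, whereas the CA probes lie around -0.09.

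Among 13 monocyte markers, 2 were higher, 6 were lower and 5 were not called, with a median of -0.20. The median hides large differences, since all 6 lower calls and 1 of the higher calls were by more than 2-fold. Over all genes, 7.19% were lower and 9.89% higher to that extent. Named here after their values were seen, Cx3cr1 and Ccr2 had differences of -4.62 and -3.36, and Nr4a1 was higher by 3.38. The summed signal fell outside the Ano1fl/fl range of 376020 to 398005 on each Ctsk-Cre;Ano1fl/fl array, at 235510 to 270751. Of the 3 with the highest signal, Ly6c2, a surface marker of inflammatory monocytes, was lower with a difference of -1.42 (adjusted p = 0.00060). Csf1r, the receptor gene for M-CSF, had a difference of -0.04 (adjusted p = 0.74), and Chil3, a secreted chitinase-like protein gene, one of -0.20 (adjusted p = 0.23). Neither passed the test. In a list of 12 interferon response genes, a program often active in monocytes, 1 was higher, 5 were lower and 6 were not called. The median of that list was -0.30, with differences of -0.46 for Irf7 (adjusted p = 0.0027), 0.03 for Isg15 (adjusted p = 0.90) and -0.04 for Bst2 (adjusted p = 0.70).

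The macrophage members showed small differences of both signs. Ms4a6d was higher, reading 14.92, 14.73 and 14.75 on the Ano1fl/fl arrays, against 15.47, 15.41 and 15.32 on the Ctsk-Cre;Ano1fl/fl arrays. All 3 Ctsk-Cre;Ano1fl/fl arrays were above all 3 controls, and the difference was 0.60 with an SE of 0.09, or 1.51-fold (limma, adjusted p = 0.0022). This held with any single array left out.

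Ms4a7 was called by its main probe only narrowly. A_55_P1958165 read 16.17, 16.21 and 16.27 on the Ano1fl/fl arrays, against 16.42, 16.56 and 16.41 on the Ctsk-Cre;Ano1fl/fl arrays, a difference of 0.24 with an SE of 0.08 (limma, adjusted p = 0.041). The call was lost with any one of the 6 arrays left out, where the difference was 0.19 to 0.27 and the adjusted p 0.064 to 0.114, with 75th percentile scaling (0.13, adjusted p = 0.29) and with the mean of both probes (0.21, adjusted p = 0.052). The second probe, A_52_P59124, read 15.12, 15.15 and 15.14 and then 15.30, 15.35 and 15.27. Its groups did not overlap either, but the difference of 0.17 was not called (adjusted p = 0.080). It passed under 4 alternatives, with adjusted p of 0.011 to 0.041.

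Ms4a4a, the human counterpart of which marks alternatively activated macrophages, read 11.64, 11.40 and 11.84 on the Ano1fl/fl arrays, against 12.08, 12.18 and 11.75 on the Ctsk-Cre;Ano1fl/fl arrays. The groups overlapped, since Ctsk-Cre;Ano1fl/fl array 3 was below Ano1fl/fl array 3. The difference was 0.37 with a 95% interval of -0.01 to 0.75 and was not called (adjusted p = 0.093). It passed without Ctsk-Cre;Ano1fl/fl array 3, at 0.50 (adjusted p = 0.042), and with an intensity trend and robust settings (adjusted p = 0.048).

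Ms4a8a gave a low signal, with 5.02, 5.34 and 5.61 on the Ano1fl/fl arrays, against 4.61, 4.38 and 4.93 on the Ctsk-Cre;Ano1fl/fl arrays. The groups were next to each other without overlap, and the difference of -0.68 with an SE of 0.20 passed the test (limma, adjusted p = 0.026). The call was lost without Ano1fl/fl array 2 (-0.68), without Ano1fl/fl array 3 (-0.54), without Ctsk-Cre;Ano1fl/fl array 1 (-0.67) and without Ctsk-Cre;Ano1fl/fl array 2 (-0.56), where the adjusted p was 0.069 to 0.075. It was also lost with normexp correction (-0.20, adjusted p = 0.064), the methods' t-test (Benjamini-Hochberg adjusted p = 0.081), the mean of both probes (0.091) and no filter on dim probes (0.075). The other probe, A_55_P2739272, was below background on all 6 arrays.

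Of 19 macrophage markers 16 were tested, of which 3 were higher, 9 were lower and 4 were not called, with a median of -0.43, and Cd163 and Lyve1 were below background on all arrays. The median and the summed signal went different ways, since the sum was 363175 to 398609 on Ano1fl/fl arrays and 425866 to 501192 on Ctsk-Cre;Ano1fl/fl arrays. The 3 genes with the highest signal were themselves divided. Adgre1, which encodes the macrophage antigen F4/80, was higher by 0.80 (adjusted p = 0.00071) and the scavenger receptor gene Marco by 3.01 (adjusted p = 1.5e-05). Marco read 14.10 to 14.28 on the Ano1fl/fl arrays and 17.02 to 17.37 on the Ctsk-Cre;Ano1fl/fl arrays. On the linear scale its mean gain alone exceeded that of the sum, so the higher sum does not stand for the list as a whole. C1qc, a complement gene of resident macrophages, had a difference of -0.44 (adjusted p = 0.015).

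**Figure D4:**
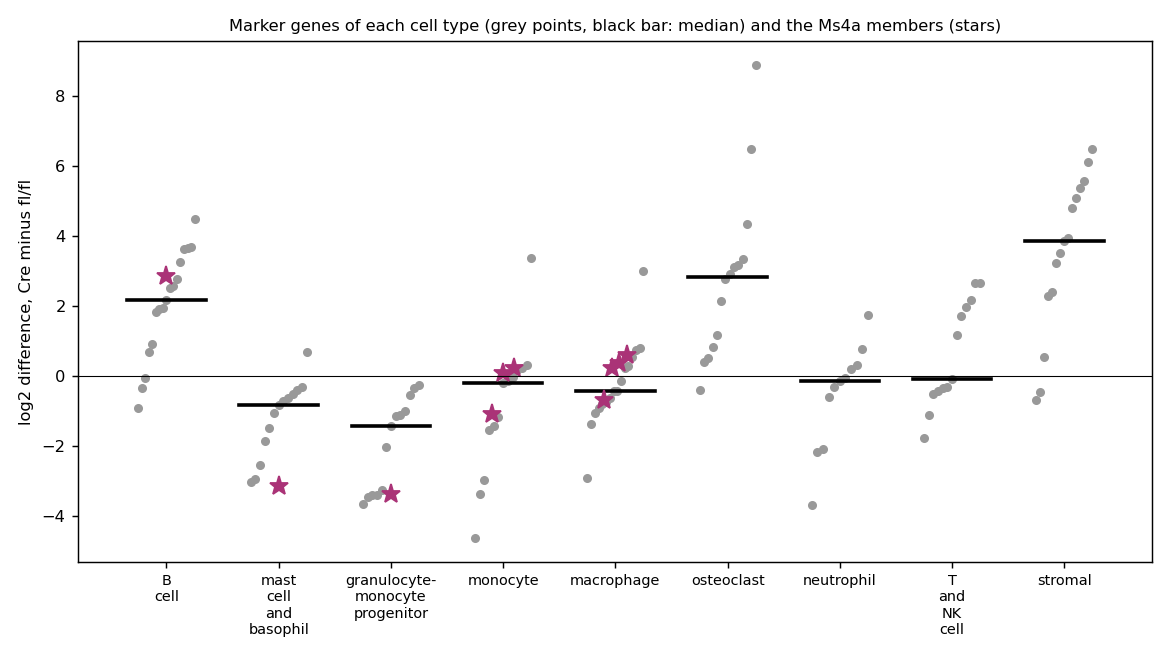
Log2 differences of the tested marker genes of each cell type (grey points, black bar for the median) with the Ms4a members of that type (stars), as Ctsk-Cre;Ano1fl/fl minus Ano1fl/fl. Ms4a1 at 2.85 lies near its list's median of 2.17, and Ms4a3 at -3.37 lies below its list's median of -1.43. The Ms4a2 star rests on Ctsk-Cre;Ano1fl/fl signals mostly below background, so its place is approximate.

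For the neutrophil, T and NK cell and erythroid lists, to which none of the 10 members was assigned here, the differences were mixed. Of 11 neutrophil markers 3 were higher, 5 were lower and 3 were not called, with Lcn2 higher by 1.75, S100a8 lower with a difference of -0.60, and S100a9 not called at 0.20. Of 13 T and NK cell markers 6 were higher, 2 were lower and 5 were not called, with Lck higher by 2.66, Nkg7 lower with a difference of -1.77, and Cd4 not called at -0.08. Of 6 erythroid markers 2 were tested, and both were lower, Hba-a1 with a difference of -1.09 and Epor with one of -0.54.

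Other genes of the family and its relatives also went both ways. Of 14 related genes listed, 12 had a probe, 6 were tested, 2 were higher, 2 were lower and 2 were not called. Ms4a4d was below background on all 3 Ano1fl/fl arrays and read 6.80, 5.85 and 5.81 on the Ctsk-Cre;Ano1fl/fl arrays. It was thus at least 4.55-fold higher. It entered the test only through the Ctsk-Cre;Ano1fl/fl arrays, so no p-value is given for it, and its place among the 2 higher rests on control signals below background. Ms4a4b, which T cells express, had a difference of -1.32 on its main probe (adjusted p = 0.0017) and of -0.22 on the other (adjusted p = 0.33). Ms4a14 had a difference of -0.73 (adjusted p = 0.0026), and Ms4a18 one of 0.41 that was not called (adjusted p = 0.15). Of the related genes on chromosome 6, Tmem176a was higher by 0.43 (adjusted p = 0.014), and Tmem176b was not called at -0.16 (adjusted p = 0.28). Ms4a5, Ms4a10, Ms4a12, Ms4a13, Ms4a15 and Ms4a20 were below background on all arrays.

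In the order of the probes along chromosome 19, Ms4a4d, which was higher, lay between Ms4a6b, which was lower, and Ms4a6d, which was higher by 0.60. The only neighbours that shared a fall of more than 2-fold were Ms4a2 and Ms4a3, the last pair in this order.

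**Figure D5:**
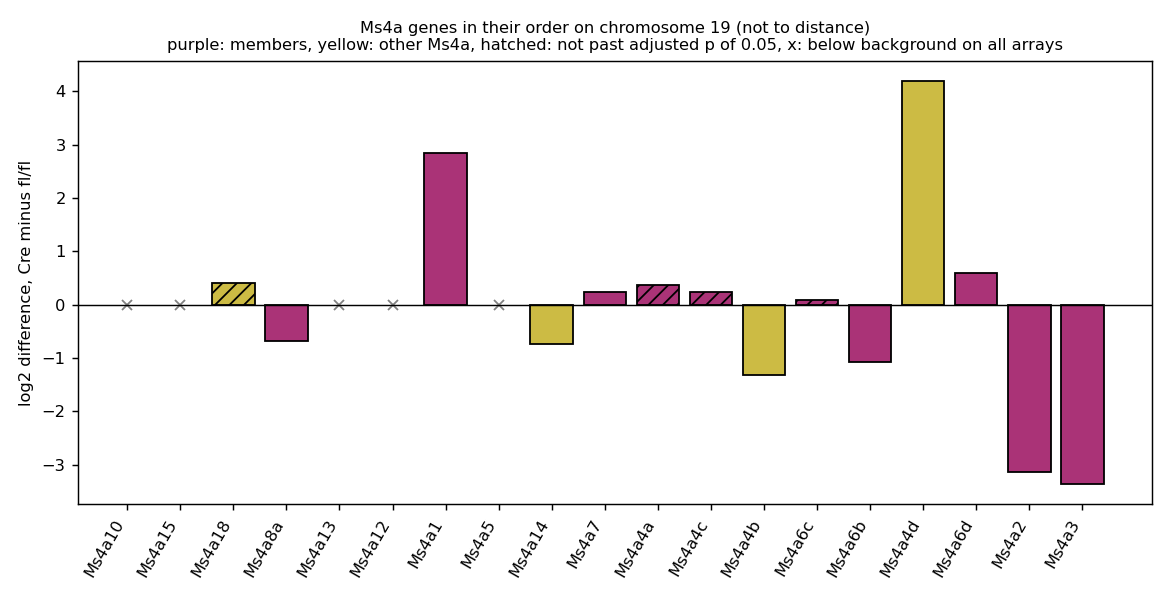
Log2 difference of the main probe of 19 Ms4a genes (bars, Ctsk-Cre;Ano1fl/fl minus Ano1fl/fl) in their order along chromosome 19, not to distance and without Ms4a20, whose array name is 1700017D01Rik, with hatching where the test was not passed and crosses for genes below background on all arrays. Ms4a2 and Ms4a3 stand side by side below 0, but the Ms4a2 bar rests on Ctsk-Cre;Ano1fl/fl signals below background on 2 of 3 arrays and the Ms4a4d bar on control signals below background, so neither is a measured size.

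Because Ms4a2 and Ms4a3 lie next to each other and were both lower, the promoter windows of this pair are shown, from 250 bases before to 50 bases after the start site in the RefSeq table for GRCm38.p6, as lower-case sequence with motif matches in capitals. The Ms4a2 window is chr19:11623670-11623969 and the Ms4a3 window chr19:11640802-11641101, both on the minus strand and written 5′ to 3′ along the gene.
Ms4a2: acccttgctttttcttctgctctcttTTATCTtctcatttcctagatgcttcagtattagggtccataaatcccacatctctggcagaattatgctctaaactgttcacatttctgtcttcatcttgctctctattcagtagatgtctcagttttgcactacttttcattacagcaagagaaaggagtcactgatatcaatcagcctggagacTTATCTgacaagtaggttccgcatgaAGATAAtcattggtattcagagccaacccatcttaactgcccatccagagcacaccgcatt
Ms4a3: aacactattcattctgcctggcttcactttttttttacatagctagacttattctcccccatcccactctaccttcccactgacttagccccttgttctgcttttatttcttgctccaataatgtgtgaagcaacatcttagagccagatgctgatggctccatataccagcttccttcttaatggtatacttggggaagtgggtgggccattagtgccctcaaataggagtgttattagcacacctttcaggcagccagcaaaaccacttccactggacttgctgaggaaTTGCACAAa
Both strands were searched for 4 motifs, spelled AGATAA for the GATA factors, TTGCNNAA for the C/EBP factors, GAGGAAGT for PU.1 and CACGTG for the E-box. None of these spellings lies within another. The Ms4a2 window held 3 matches to AGATAA, at -224 and -37 on the opposite strand and at -11 on the gene's own strand, counted from the start site. Of 32851 windows of the same length, 11.2% held at least 1 such match and 0.107% held at least 3. The cut of 3 was taken from the Ms4a2 window itself, after 4 motifs had been searched, so the 0.107% is a description and not a test. The Ms4a3 window held 1 match to TTGCNNAA, which 10.8% of all windows held. In all, 8 of the 10 members had a window in the table, and the other windows held no match to any of the 4 spellings. The members without one were Ms4a1 and Ms4a6d. A match is a description of the sequence and not of a bound site.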

How the data were processed

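Gene expression was measured on 6 one-colour Agilent arrays. The authors deposited scanner intensities per spot, read with Feature Extraction 10.7.1.1 on mm9 annotation. The processed signal, background-subtracted by that software, was used here. The deposited series matrix equals the spot median intensity on a linear scale (column medians 57 to 65). The 6 arrays shared a slide and a scan.

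Signals were put on the log2 scale, outlier spots set missing, quantile normalized as the methods name, averaged per probe and compared with limma 3.58.1 in R 4.3.3 (lmFit, eBayes; Benjamini-Hochberg over 31848 probes). Because of a missing value, 14 probes could not enter. A probe was tested where at least 0.5 of its spots were well above background on all 3 arrays of a group. The code was tested on simulated data. Sequences and plots used Python 3.11.15, pandas 2.3.3 and matplotlib 3.10.9.

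The members and lists were chosen with earlier results of these data known. Beside the members, the 3 tested genes of each list with the highest signal were named, or all where 6 or fewer were tested, and for Ms4a3 the 3 probes with the highest correlation, of which 1 is not reported here. Each array held the culture of 1 mouse, per the methods.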

Additional observations from a re-analysis of the deposited data

How the results depend on the processing

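There were 16 alternatives, 6 of which left out 1 array. Each changed 1 choice, except that the intensity trend and the robust setting were changed together. Ms4a1, Ms4a3, Ms4a6b and Ms4a6d kept their direction and stayed past the threshold in each alternative. Ms4a2 did so wherever its main probe was tested, but with a filter on all 6 arrays that probe was left out. The number of member probes called higher was 7 with an intensity trend and robust settings, beside 4, and that of genes was 5, beside 3. Without a filter on dim probes 12.3% of all probes were called higher and 16.3% lower, and the cause was not tested. Ms4a6c turned to -0.0028 with 75th percentile scaling. The median of the other Ms4a and related genes, 0.13, turned to -0.032 without a filter, -0.027 with normexp correction and -0.16 with a filter on all 6 arrays, and the cause was not tested. Without 1 array, the Ms4a genes called numbered 2 to 3 higher and 3 to 4 lower. Low signals (Ms4a2, Ms4a8a and the second Ms4a1 probe) have the least certain sizes.

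Same-numbered arrays of the groups did not deviate together (correlations -0.02, -0.08 and -0.09), and no array deviated most like the array of its own number, so the numbers do not pair them. With the replicate number as a block, 2 members were higher and 4 lower, and Ms4a7 was no longer called (adjusted p = 0.096).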
